A study of Mus musculus with 6 samples.

Results

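The enzymes that turn arachidonic acid into prostaglandins and leukotrienes were read from RNA of bone marrow neutrophils. The 10 genes were listed by name as enzymes of these pathways, with earlier results of these data known, and all 10 were found among the 38887 gene identifiers of the count table. They were Pla2g4a, Ptgs1, Ptgs2, Ptges, Ptges3, Alox5, Alox5ap, Lta4h, Ltc4s and Alox15. Of the 12259 genes with enough counts to be tested, 9 were in the list, and Ltc4s was the member that was not.

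Cells came from 3 groups of mice, with 2 libraries per group: naive mice without a tumor, and mice bearing LL2 tumors at week 1 or at week 3. LL2 is a Lewis lung carcinoma line, here expressing luciferase, which the study placed in the lungs by intravenous injection. A single transplanted line is thus the only tumor behind both time points. The labels name no genotype, strain, sex or age, and the study's methods list purchased C57BL/6 mice without saying which of them gave this RNA. Neutrophils were taken from bone marrow with beads against Ly6G, a surface protein of mouse neutrophils, and total RNA libraries were made. Each title names a mouse and a replicate number, and no source used here says whether a library holds RNA of a single mouse. The p-values therefore measure the spread between these libraries, which may in part be technical. The question put to the groups was how neutrophils at an early and at an advanced stage of the tumor differ from those of mice without a tumor.

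In these pathways a phospholipase A2 first frees arachidonic acid from membrane lipid. Cyclooxygenases then make prostaglandin H, from which terminal synthases make prostaglandin E and other prostanoids. On the other branch 5-lipoxygenase, helped by its activating protein FLAP, makes leukotriene A, which is turned into leukotriene B or leukotriene C. Neutrophils are known as a main source of leukotriene B, a strong attractant for other neutrophils.

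Libraries held between 11994158 and 14127919 counts, so 3 counts corresponded to between 0.2 and 0.246 CPM. Levels below are CPM, counts scaled to a common library total, after TMM scaling, a correction for differences in library composition. S100a8, the most abundant neutrophil marker, stood between 147300 and 228700 CPM, and the summed neutrophil markers between 243000 and 327000 CPM. Ly6g itself had only 6 to 32 counts per library, so the gene behind the selection was close to absent from the counts. Monocyte and macrophage markers summed to between 961 and 1130 CPM. Without Ly6c2, the most abundant of them, the sum ran from 299 to 435 CPM, both in week 3 libraries. Erythroid markers summed to between 562 and 1490 CPM with week 3 replicate 2 lowest. Called below means an adjusted p under 0.05 in edgeR's quasi-likelihood test, with Benjamini-Hochberg adjustment over all tested genes. Scaling by library size alone shifted the median log2 fold change of all genes by -0.15 for week 3 against naive and by -0.20 for week 3 against week 1. With that scaling the calls at week 3 against naive were 890 higher and 1675 lower, in place of 1471 and 1155. At week 3 against week 1 they were 856 and 2136 in place of 1586 and 1173, and at week 1 against naive 575 and 263 in place of 518 and 461.

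At week 3, Alox5ap rose and Ptgs1 and Lta4h fell from naive, while Alox5, the lipoxygenase that FLAP serves, did not pass the test. At week 1, only Ptgs1 of the 9 tested members was called, and it was lower. The called share over all tested genes was 7.99% for week 1 against naive, 4.23% higher and 3.76% lower, so 1 of 9 stood near that background. Of the 9, 3 were called at week 3 against naive, 1 higher and 2 lower, where 21.4% of all tested genes were called, 12% higher and 9.42% lower. Likewise 3 of 9 were called from week 1 to week 3, 1 higher and 2 lower, where 22.5% of all tested genes were called, 12.9% higher and 9.57% lower. No member passed a change over 5-fold as well, which 0.75%, 1.7% and 1.6% of all tested genes did. The median log2 fold change of the tested members was 0.01, -0.06 and -0.32 in these comparisons, and that of all tested genes 0.01, 0.03 and -0.02. The libraries did not overlap between groups for 6, 7 and 8 of the 9 members, where 53.2%, 59.6% and 63.8% of all tested genes did not overlap. The 3 comparisons share libraries and are not independent of each other. With 9 genes, shares of this size do not set the list apart from all genes.

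**Figure D1:**
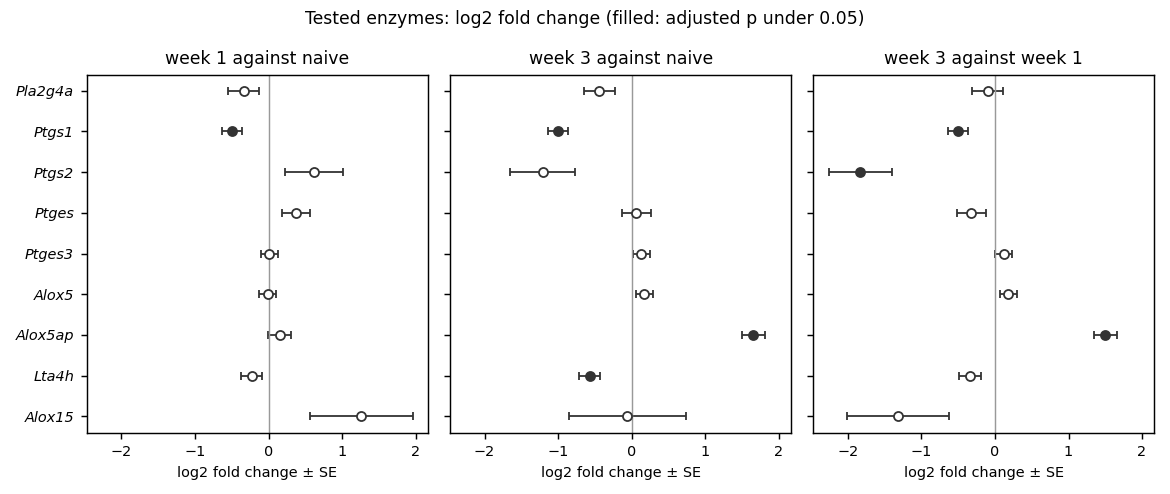
Log2 fold change of the 9 tested enzymes in the 3 comparisons, with bars of 1 SE from edgeR and filled points for an adjusted p under 0.05. Alox5ap is the only filled point to the right of 0 and Ptgs1 is filled in all 3 panels.

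**Figure D2:**
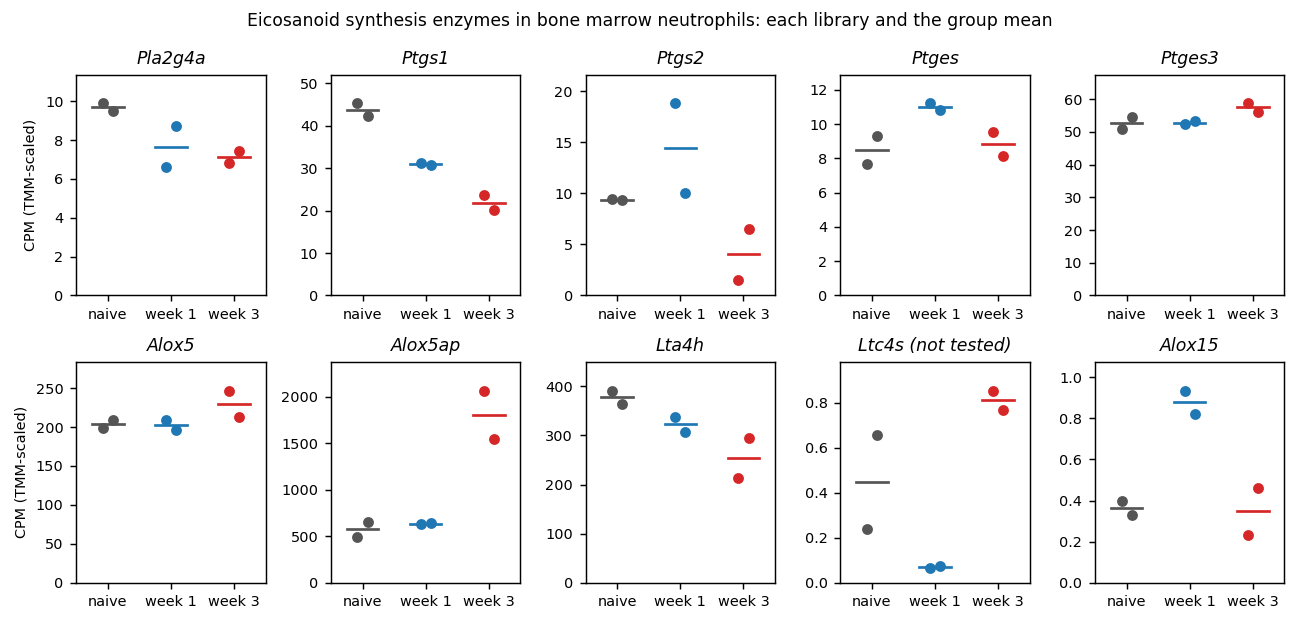
Level of each of the 10 enzymes in every library, with 1 panel per gene, CPM on the vertical axis from 0 and the naive, week 1 and week 3 groups on the horizontal axis. Points are libraries and lines are group means of 2 libraries. Both week 3 points of Alox5ap, at 2067 and 1547 CPM, lie above the other 4, which reach 654 CPM.

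Alox5ap (ENSMUSG00000060063) codes for FLAP, the membrane protein that presents arachidonic acid to 5-lipoxygenase. It lies on the forward strand at chr5:149264767-149288153 of GRCm38. In naive mice it stood at 496 and 654 CPM, in week 1 mice at 636 and 638 CPM, and in week 3 mice at 2067 and 1547 CPM. The week 1 libraries lay within the naive range, and both week 3 libraries lay far above it. The week 3 mean was 1807 ± 368 CPM (SD, n = 2) against 575 ± 112 CPM in naive mice. Alox5ap rose 3.14-fold at week 3 against naive (log2 1.65, SE 0.157, adjusted p = 1.28e-05, edgeR). It rose 2.84-fold against week 1 (log2 1.5, SE 0.157, adjusted p = 2.5e-05, edgeR). At week 1 its change from naive was 0.15 on the log2 scale (SE 0.154, adjusted p = 0.619, edgeR). Both week 3 calls held in all 13 alternatives tried, with log2 values between 1.43 and 1.87 against naive and between 1.29 and 1.71 against week 1.

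In bulk RNA, fewer cells of a type and less RNA per cell cannot be told apart, so each change here may lie in either. Summed markers of neutrophil precursors were, like Alox5ap, highest in both week 3 libraries. Of these 6 genes, 5 were called higher at week 3 against naive, and Fcnb was called lower. Their summed level ran from 124 to 126 CPM in naive, 127 to 168 CPM in week 1 and 287 to 391 CPM in week 3 libraries, with no marker at 0 throughout. Within week 3 the sum was higher in replicate 2 (391 against 287 CPM), while Alox5ap was higher in replicate 1 (2067 against 1547 CPM). In naive and week 1 libraries both were higher in replicate 2. At week 3 against naive, 12% of all tested genes were called higher and 9.42% lower. Among the 8 neutrophil markers 2 were called higher and none lower in that comparison. Their part in the rise of Alox5ap was not tested. The annotation places an antisense gene, Gm19719, over 189 exonic bases of Alox5ap. Whether counting used strand is not given in the sources used here, so reads of the gene and its antisense partner may not have been kept apart.

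The 5 tested genes whose log2 CPM followed Alox5ap most closely over the 6 libraries were Atp13a2 (Pearson r = 0.9974), Apoc1 (0.9966), Mvp (0.9965), Alas1 (0.9958) and S100a6 (0.9958). This likeness is a description, since 6 libraries in 3 groups leave few free points, and 32 of 12258 genes passed an r of 0.99. S100a6, a calcium-binding protein, went from 3100 ± 533 CPM in naive mice to 8590 ± 806 CPM in week 3 mice (SD, n = 2). Atp13a2, a lysosomal polyamine transporter, went from 16.6 ± 3.41 CPM to 78.6 ± 13.6 CPM.

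Alox5 (ENSMUSG00000025701), on the reverse strand at chr6:116410077-116461178, codes for 5-lipoxygenase, which starts leukotriene synthesis. Its level was 199 and 209.7 CPM in naive, 209.0 and 196 CPM in week 1, and 247 and 213 CPM in week 3 libraries. Naive and week 1 libraries overlapped, and both week 3 libraries lay above them. The change at week 3 against naive was 0.17 on the log2 scale (SE 0.116, adjusted p = 0.332, edgeR) and did not pass the test. Against week 1 it was 0.18 (SE 0.116, adjusted p = 0.286, edgeR), and -0.02 with library size scaling. Within each library, the level of Alox5ap per kb of exon was 7.22 and 9.02 times that of Alox5 in naive mice and 8.8 and 9.4 times in week 1 mice. It was 24.2 and 21 times in week 3 mice, so the ratio in both week 3 libraries lay above the other 4.

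Lta4h (ENSMUSG00000015889), on the forward strand at chr10:93453411-93484875, codes for leukotriene A hydrolase, the enzyme that makes leukotriene B. Its level was 391 and 364 CPM in naive, 338 and 306 CPM in week 1, and 213 and 295 CPM in week 3 libraries. The groups did not overlap, and the spread was widest at week 3. Lta4h fell 1.48-fold at week 3 against naive (log2 -0.57, SE 0.144, adjusted p = 0.0131, edgeR). This call depended on single libraries: without naive replicate 1 the log2 value was -0.55 with an adjusted p of 0.0765 in edgeR, and without week 3 replicate 1 it was -0.34 with an adjusted p of 0.135. Over all 13 alternatives the adjusted p ran from 4.02e-05 to 0.135. Against week 1 the change was -0.34 (SE 0.144, adjusted p = 0.106, edgeR). There, without week 3 replicate 1 it was -0.11 with an adjusted p of 0.669, without week 3 replicate 2 it was -0.59 with an adjusted p of 0.0119, and with library size scaling -0.54 with an adjusted p of 0.0206, over a range of 0.0119 to 0.669.

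Ltc4s (ENSMUSG00000020377), on the reverse strand at chr11:50236461-50238616, codes for leukotriene C synthase, which is best known from mast cells, basophils and eosinophils. It had 3 and 8 counts in naive, 1 and 1 in week 1, and 11 and 10 in week 3 libraries. These are 0.237 and 0.655 CPM, 0.0668 and 0.0746 CPM, and 0.853 and 0.769 CPM. The week 1 counts lay below both other groups, and all counts were too low for the gene to enter the main test. The ratio of naive to week 1 was 6.28 with a 95% counting interval of 1.37 to 58.3. That of week 1 to week 3 was 0.0869 with an interval of 0.00988 to 0.355, and such intervals cover counting error only. With a filter of at least 10 counts in at least 2 libraries, the edgeR log2 change at week 3 against week 1 was 3.36 (adjusted p = 0.0239). Only the week 3 libraries reached 10 counts, so Ltc4s entered that fit through the group where it was highest. That adjusted p is therefore no independent test of the difference. Without week 1 replicate 2 the log2 change was 3.40. Antisense gene Gm26542 shares 268 exonic bases with Ltc4s and had 0 to 3 counts per library. The 7 basophil and mast cell markers summed to 1250 to 1470 CPM in naive and 918 to 1040 CPM in week 1 libraries. In week 3 libraries they summed to 860 to 914 CPM, and most of each sum came from Hdc. The 6 markers other than Hdc summed to 24.93 to 24.97 CPM in naive and 66.7 to 70.1 CPM in week 1 libraries. In week 3 libraries they summed to 6.67 to 12.1 CPM. These 6 were thus highest at week 1 and lowest at week 3, where Ltc4s was lowest at week 1 and highest at week 3. The part of the basophil and mast cell markers in the values of Ltc4s was not tested.

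**Figure D3:**
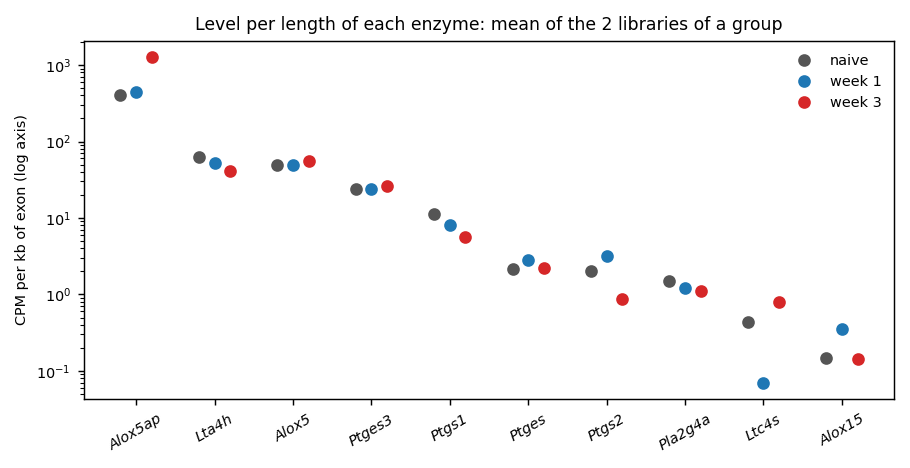
Level of each enzyme per kb of exon, as the mean of 2 libraries per group in CPM per kb on a log axis, with genes ordered by the naive mean. Alox5ap lies highest in all 3 groups, at 405, 449 and 1272 CPM per kb.

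Levels of different genes were compared per length, as CPM per kb of the union of a gene's exons. In naive mice Alox5ap was highest, at 405 ± 78.7 CPM per kb (SD, n = 2). Lta4h followed at 61.9 ± 3.23 CPM per kb, Alox5 at 49.7 ± 1.87 CPM per kb and Ptges3 at 23.8 ± 1.13 CPM per kb. Thus 3 of the 4 leukotriene genes, all but Ltc4s, held the first 3 places. Ptgs1 came next, at 11.3 ± 0.536 CPM per kb. Ptges at 2.16 ± 0.298 and Ptgs2 at 2.05 ± 0.0131 CPM per kb did not differ beyond their spread, and Pla2g4a followed at 1.52 ± 0.0438 CPM per kb. Ltc4s at 0.44 ± 0.291 and Alox15 at 0.147 ± 0.0197 CPM per kb closed the order, and their difference was about the size of the spread of Ltc4s. Taken per longest transcript, Pla2g4a moved ahead of Ptges and Ptgs2.

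Pla2g4a (ENSMUSG00000056220), on the reverse strand at chr1:149829618-149961290, codes for cytosolic phospholipase A2, which frees arachidonic acid. Its level was 9.89 and 9.50 CPM in naive, 6.61 and 8.73 CPM in week 1, and 6.83 and 7.46 CPM in week 3 libraries. All 4 tumor libraries lay below both naive libraries, and the week 1 and week 3 libraries overlapped. The change from naive was -0.34 at week 1 (SE 0.207, adjusted p = 0.355, edgeR) and -0.44 at week 3 (SE 0.209, adjusted p = 0.159, edgeR) on the log2 scale, and neither passed the test.

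Ptgs1 (ENSMUSG00000047250), on the forward strand at chr2:36230426-36252272, codes for cyclooxygenase-1, the constitutive enzyme, which platelets hold in plenty. Its level was 45.3 and 42.3 CPM in naive, 31.3 and 30.7 CPM in week 1, and 23.6 and 20.1 CPM in week 3 libraries. The 3 groups did not overlap and lay in the order naive, week 1, week 3. Ptgs1 fell 2.0-fold at week 3 against naive (log2 -1.0, SE 0.136, adjusted p = 0.000225, edgeR). That call held in all 13 alternatives, with log2 values between -1.15 and -0.89. At week 1 it fell 1.41-fold (log2 -0.50, SE 0.133, adjusted p = 0.0369, edgeR). Without any single library of the compared groups the adjusted p was above 0.05, at 0.202 and 0.0783 without naive replicates 1 and 2 and at 0.168 and 0.184 without week 1 replicates 1 and 2. With library size scaling it was 0.0764. From week 1 to week 3 it fell by 0.50 on the log2 scale (SE 0.137, adjusted p = 0.0179, edgeR). The adjusted p of this step was 0.0804 and 0.0646 without week 1 replicates 1 and 2, and 0.139 without week 3 replicate 2.

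Summed platelet and megakaryocyte markers lay, like Ptgs1, highest in naive and lowest in week 3 libraries. Of the 5 tested, Pf4, Ppbp and Itga2b were called lower at week 3 against naive, where 9.42% of all tested genes were. Of the same 5, only Itga2b was called lower at week 1 against naive, where 3.76% of all tested genes were. The summed level of the platelet and megakaryocyte markers over 6 genes ran from 188 to 201 CPM in naive, 159 to 184 CPM in week 1 and 132 to 149 CPM in week 3 libraries. No marker was at 0 throughout. Within week 1 and within week 3 the sum was higher in replicate 2, while Ptgs1 was higher in replicate 1. In naive libraries both were higher in replicate 1. The part of these markers in the fall of Ptgs1 was not tested. A gene of uncertain coding status on the other strand, Gm43621, overlaps 148 exonic bases of Ptgs1.

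Ptgs2 (ENSMUSG00000032487), on the forward strand at chr1:150100031-150108227, codes for cyclooxygenase-2, the inducible enzyme, and lies 139 kb from Pla2g4a. Its level was 9.42 and 9.33 CPM in naive, 18.8 and 9.99 CPM in week 1, and 1.55 and 6.54 CPM in week 3 libraries. Naive libraries were close to each other, while those of week 1 and of week 3 differed widely. All 3 groups were free of overlap, with week 1 highest and week 3 lowest. Ptgs2 fell 3.56-fold from week 1 to week 3 (log2 -1.83, SE 0.431, adjusted p = 0.00817, edgeR). This call was lost with DESeq2 (adjusted p = 0.114) and in edgeR without week 1 replicate 1 (log2 -1.33, adjusted p = 0.0905). Its size rested on the week 3 libraries, at log2 -1.13 without replicate 1 (adjusted p = 0.0256) and -3.20 without replicate 2 (adjusted p = 5.52e-05). Over the 13 alternatives its adjusted p ran from 7.3e-14 to 0.114.

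Against naive, the log2 change of Ptgs2 was 0.62 at week 1 (SE 0.396, adjusted p = 0.381, edgeR) and -1.21 at week 3 (SE 0.444, adjusted p = 0.0706, edgeR). Without week 3 replicate 1 the latter was -0.51 with an adjusted p of 0.342. Without week 3 replicate 2 it was -2.58 with an adjusted p of 0.000508, and without week 1 replicate 2 it was -1.24 with an adjusted p of 0.0429, over a range of 5.82e-06 to 0.361. Of the summed level per length of Ptgs1 and Ptgs2, Ptgs2 made up 15% and 15.8% in naive, 33.8% and 21.6% in week 1, and 5.28% and 21.6% in week 3 libraries. The week 3 libraries thus lay on either side of naive.

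**Figure D4:**
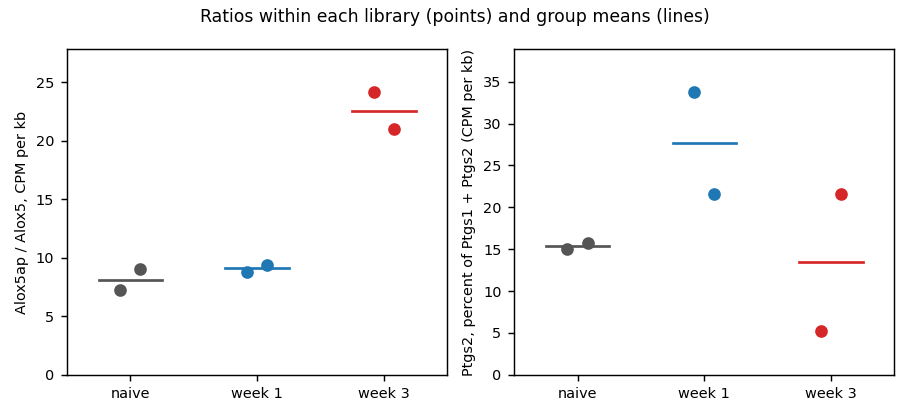
Ratio of Alox5ap to Alox5 (left) and share of Ptgs2 in the sum of Ptgs1 and Ptgs2 in percent (right), both from CPM per kb, with 1 point per library and lines at group means. The left panel shows both week 3 libraries above 20 and the right panel shows week 3 libraries at 5.28% and 21.6%.

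Basophil and mast cell markers other than Hdc were, like Ptgs2, highest at week 1 and lowest at week 3. The rise of Ptgs2 at week 1 against naive was not called. The summed level of these 6 genes was 24.93 to 24.97 CPM in naive, 66.7 to 70.1 CPM in week 1 and 6.67 to 12.1 CPM in week 3 libraries. Within week 1 the sum was higher in replicate 2, while Ptgs2 was higher in replicate 1 (18.8 against 9.99 CPM). Within week 3 both were higher in replicate 2. Hdc, the histidine decarboxylase gene and by far the most abundant of the list, went the other way at week 1, with a log2 change of -0.56 from naive (adjusted p = 0.0147, edgeR), so the sum of all 7 markers was highest in naive libraries. Over all tested genes 4.23% were called higher and 3.76% lower at week 1 against naive, and 9.57% lower at week 3 against week 1. Of the 5 tested markers of the list, Hdc included, 3 were called higher and Hdc lower at week 1 against naive. At week 3 against week 1, 4 of the markers were called lower. None was at 0 throughout. Their part in the values of Ptgs2 was not tested.

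Stretches of 250 bases before the start site are printed for the 3 called members that have an entry in the promoter table, from RefSeq for GRCm38.p6. They are Ptgs2 (chr1:150099781-150100030), Ptgs1 (chr2:36230176-36230425) and Lta4h (chr10:93453146-93453395), all on the forward strand and 5′ to 3′. The table held 8 of the 10 members and not Alox5ap or Alox15. For Ptgs2 the first 30 transcribed bases (chr1:150100031-150100060) are added, because they hold 2 of its matches. Capitals mark matches on either strand to 7 patterns searched: the CRE core, an E box, the CCAAT box, the GC box, a C/EBP pattern, an ETS core and an NF-kB-like pattern of 3 G and 2 C with 5 free bases between.
Ptgs2: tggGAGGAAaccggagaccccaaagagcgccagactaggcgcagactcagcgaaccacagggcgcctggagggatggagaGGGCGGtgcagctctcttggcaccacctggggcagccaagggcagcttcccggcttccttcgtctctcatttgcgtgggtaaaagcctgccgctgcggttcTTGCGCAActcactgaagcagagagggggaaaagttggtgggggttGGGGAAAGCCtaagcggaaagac
Ptgs2 start: agagtcaccactACGTCACGTGgagtccgc
Ptgs1: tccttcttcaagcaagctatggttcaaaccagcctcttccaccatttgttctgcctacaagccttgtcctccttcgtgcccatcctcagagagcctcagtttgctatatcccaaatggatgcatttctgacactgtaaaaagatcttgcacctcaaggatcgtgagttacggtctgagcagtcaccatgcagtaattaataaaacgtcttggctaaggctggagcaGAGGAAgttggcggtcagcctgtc
Lta4h: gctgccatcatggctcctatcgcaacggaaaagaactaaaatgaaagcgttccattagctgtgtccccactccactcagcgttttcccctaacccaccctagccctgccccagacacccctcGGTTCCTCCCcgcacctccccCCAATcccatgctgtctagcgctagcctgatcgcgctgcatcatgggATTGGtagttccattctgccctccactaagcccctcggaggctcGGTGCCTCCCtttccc
In the transcribed stretch of Ptgs2, a CRE core at base 13 and an E box at base 17 overlap by 2 bases. The CRE core, TGACGT, is what CREB and ATF factors bind, and 7.51% of all 32851 promoter windows of 300 bases in the table held it. The E box, CACGTG, was in 7.15% of windows. TTGCNNAA, a letter pattern for C/EBP factors, was in 10.8% of windows and lies 69 bases before the start of Ptgs2. Ptgs1 held, in the printed stretch, only GAGGAA, an ETS core found in 28.3% of windows. Lta4h held, in the printed stretch, the CCAAT box once on each strand, a pattern found in 37.4% of windows. It also held 2 NF-kB-like matches there, the first of which contains the ETS core on the other strand. The windows also took in 50 bases after the start. In those bases, which are not printed here, an NF-kB-like match lies at base 28 of Ptgs1 and at base 1 of Lta4h. The GC box GGGCGG was in 35.7% of windows and the NF-kB-like pattern in 50.8%. A match is a description of these letters and no measure of binding.

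Ptges (ENSMUSG00000050737), on the reverse strand at chr2:30889471-30929863, codes for microsomal prostaglandin E synthase-1, which is often coupled to cyclooxygenase-2. Its level was 7.68 and 9.33 CPM in naive, 11.2 and 10.8 CPM in week 1, and 9.54 and 8.15 CPM in week 3 libraries. Week 1 libraries lay above all others, and naive and week 3 libraries overlapped. The log2 change was 0.37 at week 1 against naive (SE 0.193, adjusted p = 0.268, edgeR) and -0.32 at week 3 against week 1 (SE 0.192, adjusted p = 0.26, edgeR), so no change of Ptges was called.

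Ptges3 (ENSMUSG00000071072), on the forward strand at chr10:128058954-128077272, codes for a cytosolic prostaglandin E synthase that is also p23, a cochaperone of Hsp90. It stood at 50.9 and 54.4 CPM in naive, 52.3 and 53.4 CPM in week 1, and 58.7 and 56.2 CPM in week 3 libraries. Both week 3 libraries lay above the rest by a small margin. The log2 changes were 0.01 at week 1 against naive (adjusted p = 0.986, edgeR), 0.13 at week 3 against naive (adjusted p = 0.50) and 0.12 at week 3 against week 1 (adjusted p = 0.505), with SEs of 0.118 to 0.119. With library size scaling the last 2 turned to -0.02 and -0.08. A processed copy, Ptges3-ps, had 2 to 33 counts per library, and reads may have been split between the gene and its copy.

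Alox15 (ENSMUSG00000018924), on the reverse strand at chr11:70344152-70352031, codes for 12/15-lipoxygenase, an enzyme of resident macrophages and eosinophils in the mouse. It had 5 and 4 counts in naive, 14 and 11 in week 1, and 3 and 6 in week 3 libraries. The week 1 libraries, at 0.934 and 0.82 CPM, lay above the other 4, which stood between 0.233 and 0.461 CPM. Only the week 1 libraries reached 10 counts, so Alox15 entered the test through the group where it was highest. This gap is therefore no independent sign of a change, though Alox15 was counted above among the members whose libraries did not overlap. The log2 change was 1.26 at week 1 against naive (SE 0.696, adjusted p = 0.306, edgeR) and -1.32 at week 3 against week 1 (SE 0.695, adjusted p = 0.197, edgeR). At this depth neither difference could be shown. Eosinophil markers summed to 121 to 123 CPM in naive, 117 to 125 CPM in week 1 and 60.7 to 88.4 CPM in week 3 libraries. Without Ear2, the most abundant, the sums were 66.1 to 67.9, 57.1 to 72.0 and 48.9 to 68.5 CPM, and the groups overlapped. Of the 7 tested, only Prg2 was called at week 1 against naive, and it was higher (adjusted p = 0.0369, edgeR). At week 3 against naive, 3 were called lower and none higher, where 9.42% and 12% of all tested genes were. From week 1 to week 3, 1 was called higher and 3 lower, where 12.9% and 9.57% of all tested genes were. None of the 9 monocyte and macrophage markers was called at week 1 against naive. At week 3 against naive F13a1 was called higher and Cx3cr1 lower, and the other 7 were not called. From week 1 to week 3, 1 was called higher and 2 lower. The part of the eosinophil, monocyte and macrophage markers in the values of Alox15 was not tested.

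Other genes of the pathways were read from 7 lists that held 60 genes, 39 of them tested. Of these 39, 1 was called higher and 2 lower at week 1 against naive, 5 higher and 7 lower at week 3 against naive, and 7 higher and 5 lower at week 3 against week 1. Over all tested genes the called shares were 7.99%, 21.4% and 22.5%, so the week 1 count was near background. Their median log2 fold change was -0.03, -0.04 and -0.20. The largest rise was in Ggt1, a gamma-glutamyltransferase that turns leukotriene C into leukotriene D and also takes part in glutathione turnover. Ggt1 stood at 5.54 and 7.78 CPM in naive, 4.41 and 5.89 CPM in week 1, and 143 and 70.1 CPM in week 3 libraries. The week 3 libraries lay far above the rest, though apart from each other. Ggt1 rose 16.0-fold at week 3 against naive (log2 4.0, SE 0.303, adjusted p = 1.84e-06, edgeR) and 20.8-fold against week 1 (log2 4.38, SE 0.309, adjusted p = 9.24e-07, edgeR). Without week 3 replicate 1 these log2 values were 3.41 and 3.79, and the calls held in all 13 alternatives. Ggt5, a relative with the same activity on leukotriene C, rose by 0.79 (adjusted p = 0.00539) and 0.96 (adjusted p = 0.00132) on the log2 scale, and the former call was lost without naive replicate 1, with 0.0893 as its highest adjusted p.

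**Figure D5:**
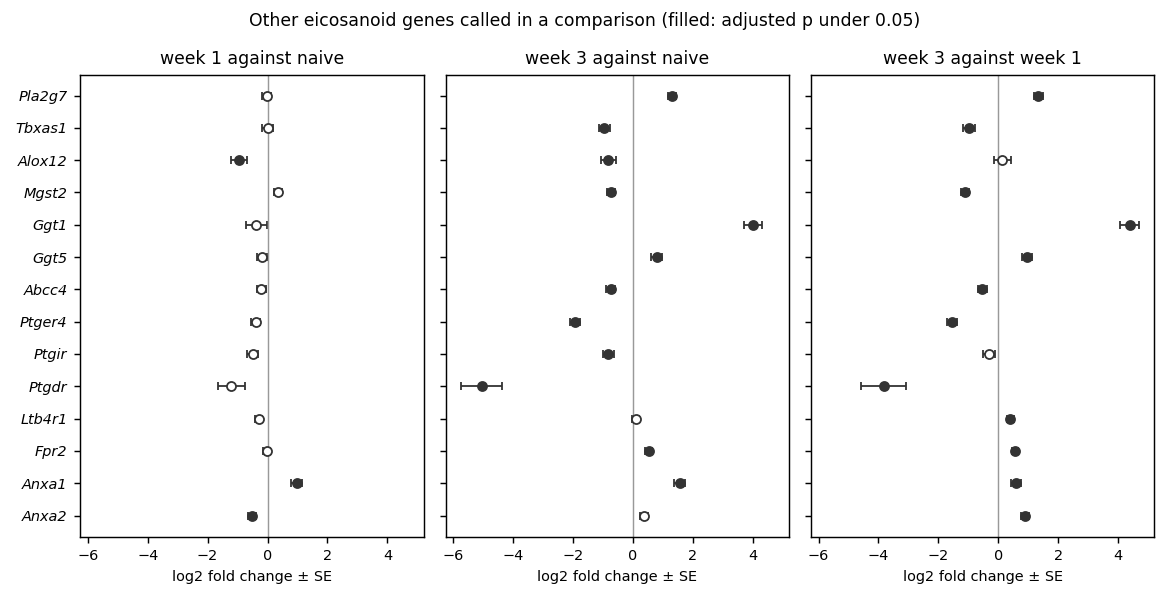
Log2 fold change of the other pathway genes that were called in a comparison, with bars of 1 SE from edgeR and filled points for an adjusted p under 0.05. Ggt1 lies farthest to the right at week 3 and Ptgdr farthest to the left.

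Among 8 other lipoxygenases and leukotriene converting enzymes tested, 2 were called higher and 2 lower at week 3 against naive. Over all tested genes the shares were 12% and 9.42%. Mgst2, a microsomal glutathione transferase that can also make leukotriene C, stood at 125 and 146 CPM in naive, 174 and 172 CPM in week 1, and 72.1 and 89.8 CPM in week 3 libraries. It fell by 0.74 at week 3 against naive (adjusted p = 0.00151, edgeR) and by 1.1 against week 1 (adjusted p = 8.36e-05, edgeR) on the log2 scale. Alox12, the platelet-type lipoxygenase, stood at 9.50 CPM in each naive library, 3.61 and 6.19 CPM in week 1, and 5.12 and 5.61 CPM in week 3 libraries. It fell by 0.96 at week 1 (adjusted p = 0.0382, edgeR) and by 0.82 at week 3 (adjusted p = 0.0376, edgeR) against naive. The week 1 call was lost without naive replicate 1 (adjusted p = 0.184), naive replicate 2 (0.116) or week 1 replicate 1 (0.26), and with library size scaling (0.0555). The week 3 call was lost without any single naive or week 3 library, with adjusted p of 0.0838 to 0.141. DESeq2 made neither call.

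Of 6 other prostanoid synthases tested, Tbxas1, which makes thromboxane A, was the only gene called. It stood at 31.2 and 26.7 CPM in naive, 30.3 and 28.0 CPM in week 1, and 18.0 and 11.7 CPM in week 3 libraries. It fell by 0.96 at week 3 against naive (adjusted p = 0.00268, edgeR) and by 0.98 against week 1 (adjusted p = 0.00229, edgeR). Both calls held in all 13 alternatives. The platelet markers given beside Ptgs1 also stood lowest at week 3, and their part in the values of Tbxas1 and Alox12 was not tested.

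Of 7 other phospholipases A2 tested, only Pla2g7 was called. It codes for a secreted enzyme that breaks down platelet-activating factor. It stood at 30.3 and 33.6 CPM in naive, 34.6 and 27.7 CPM in week 1, and 74.8 and 83.0 CPM in week 3 libraries, and rose by 1.31 against naive (adjusted p = 3.55e-05, edgeR) and by 1.34 against week 1 (adjusted p = 2.53e-05, edgeR). Among 7 genes of breakdown and export tested, only Abcc4, an exporter of prostaglandin E, was called. It fell by 0.74 against naive (adjusted p = 0.00465) and by 0.53 against week 1 (adjusted p = 0.0267) at week 3. The latter call was lost without week 1 replicate 1 (0.061), week 1 replicate 2 (0.124) or week 3 replicate 1 (0.178) and with DESeq2.

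Of the 4 prostanoid receptors tested, 3 fell at week 3 against naive and none was called higher, where 9.42% of all tested genes were called lower. Ptger4, the prostaglandin E receptor EP4, stood at 22.7 and 24.8 CPM in naive, 17.3 and 18.9 CPM in week 1, and 6.36 and 6.15 CPM in week 3 libraries. It fell 3.79-fold at week 3 against naive (log2 -1.92, SE 0.167, adjusted p = 5.59e-06, edgeR). Ptgdr, a prostaglandin D receptor, had 37 and 34 counts in naive, 21 and 14 in week 1, and 1 in each week 3 library. Its ratio of naive to week 3 was 37.0 with a counting interval of 9.87 to 311 (adjusted p = 0.000218, edgeR). Ptgir, the prostacyclin receptor, fell by 0.82 (adjusted p = 0.009, edgeR), a call lost without naive replicate 1 (adjusted p = 0.0827) and without week 3 replicate 1 (0.0845). All 7 B cell markers were called lower at week 3 against naive, and their sum went from 36.0 to 42.7 CPM in naive and 33.3 to 43.9 CPM in week 1 to 7.61 to 9.46 CPM in week 3 libraries. Their part in the receptor values was not tested.

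Both tested receptors of leukotriene B and lipoxin were called higher at week 3 against week 1, where 12.9% of all tested genes were called higher. Ltb4r1, the high-affinity leukotriene B receptor, stood at 398 and 448 CPM in naive, 326 and 362 CPM in week 1, and 473 and 432 CPM in week 3 libraries, and rose by 0.40 from week 1 to week 3 (adjusted p = 0.0267, edgeR). The Ltb4r1 call was lost with library size scaling and without week 1 replicate 1 (adjusted p = 0.24), week 1 replicate 2 (0.0901) or week 3 replicate 1 (0.128). Fpr2, a formyl peptide receptor that also binds lipoxin and annexin A1, rose by 0.53 against naive (adjusted p = 0.00489) and by 0.56 against week 1 (adjusted p = 0.00338). Those calls were lost without naive replicate 1 and without week 1 replicate 2 respectively, with adjusted p of 0.064 and 0.0529.

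Annexin A1, coded by Anxa1 and known to restrain phospholipase A2, was the only other pathway gene called higher at week 1. Anxa1 stood at 311 and 324 CPM in naive, 773 and 474 CPM in week 1, and 949 and 926 CPM in week 3 libraries. It rose by 0.97 at week 1 (SE 0.175, adjusted p = 0.00568, edgeR) and by 1.56 at week 3 (SE 0.177, adjusted p = 5.31e-05, edgeR) against naive. The former was lost without naive replicate 1 (adjusted p = 0.0933) or week 1 replicate 1 (0.0563). From week 1 to week 3 Anxa1 rose by 0.59 (adjusted p = 0.0268), a call lost with DESeq2, with library size scaling and without naive replicate 1 (0.0544), week 1 replicate 2 (0.324) or week 3 replicate 1 (0.063). Anxa2, its relative, fell by 0.52 at week 1 against naive (adjusted p = 0.0341) and rose by 0.89 from week 1 to week 3 (adjusted p = 0.000451). Without any single library of the compared groups, the fall of Anxa2 at week 1 was not called, with adjusted p of 0.062 to 0.272.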

How the data were processed

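For 38887 Ensembl identifiers in 6 libraries, the deposited values are expected counts from the authors, all of them whole, with no scaling between libraries. Per the submitters' processing notes, Bowtie2, RSEM 1.2.31 and mm10 were used. Read length and RSEM version differ between the labels and the methods. A figure legend of the study gives 3 samples per group. The labels and the deposited counts hold 2 per group, and all of these are analysed here. Symbols, positions and lengths came from GENCODE M21 (37570 identifiers matched).

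Genes were kept by filterByExpr, scaled by TMM and tested with edgeR 4.0.16 in R 4.3.3 as 1 model over 6 libraries, with an adjusted p threshold of 0.05. The SE was the log2 fold change divided by the square root of F. DESeq2 1.42.0, other scalings, filters, a 5-fold rule, a replicate block and leaving out each library were alternatives. Scripts were tested on simulated data. Members and lists were chosen with earlier results of these data known. All 10 members are named, from each other pathway list the genes called in a comparison, and for the member with the smallest adjusted p the 5 most alike genes. Replicates of a group differed beyond sampling noise (chi-square per degree of freedom 8.87 to 12).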

Additional observations from a re-analysis of the deposited data

Results flagged for a closer look

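For 3 enzymes the change from naive differed between week 1 and week 3, by edgeR's test of week 3 against week 1, which is the test of that difference. Alox5ap differed by 1.5 on the log2 scale, with changes of 0.15 at week 1 and 1.65 at week 3. Ptgs2 differed by -1.83, with changes of 0.62 and -1.21. Ptgs1 differed by -0.50, with changes of -0.50 and -1.0. Only the Alox5ap difference was called in all 13 alternatives. The call was lost in 2 of the 13 for Ptgs2, DESeq2 among them, and in 3 for Ptgs1.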

How the results depend on the processing

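Of the log2 fold changes of the members recomputed under the alternatives, 102 of 116 kept direction and call at week 1 against naive, 104 of 115 at week 3 against naive and 105 of 116 at week 3 against week 1. With 2 libraries per group and counts under 15 for Ltc4s and Alox15, small changes were not detectable. Members called at week 1 against naive numbered 0 with library size scaling, 2 without a filter and 0 with a change over 5-fold also asked for, and 0 to 1 on leaving out single libraries. For week 3 against naive it was 0 under the 5-fold rule and 2 to 4 on leaving out libraries. For week 3 against week 1 it was 5 without a filter and 0 under the 5-fold rule. Without a filter 20323 genes were tested in place of 12259. Of them, 1537 were called at week 1 and 2944 at week 3 against naive. The count over all genes for week 3 against week 1 in that setting is not given here. The member counts without a filter are thus no result about the enzymes as a list. All genes called at week 1 against naive numbered 1537 without a filter, 92 under the 5-fold rule and 147 to 1145 on leaving out libraries. For week 3 against naive the count was 208 and 1362 to 2392 in the last 2 settings, and at week 3 against week 1 196 and 1502 to 2725. The cause of these shifts was not tested.

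Directions turned for members that were not called. At week 1 against naive, Ptges3 was -0.02 with DESeq2 and with its size factors, -0.05 without naive replicate 1 and -0.01 without week 1 replicate 2. Alox5 was 0.04 with library size scaling and between -0.06 and 0.03 on leaving out libraries, positive without naive replicate 2 or week 1 replicate 2. Alox5ap lay between -0.04, without naive replicate 1, and 0.36. At week 3 against naive, Ptges was -0.09 with library size scaling and between -0.11 and 0.21 on leaving out libraries, at -0.11 without naive replicate 1 and -0.05 without week 3 replicate 1. Ptges3 was -0.02 with library size scaling, and Alox15 lay between -0.61 and 0.35 on leaving out libraries, at 0.05 without naive replicate 1 and 0.35 without week 3 replicate 1. From week 1 to week 3, Pla2g4a lay between -0.31 and 0.08, the latter without week 1 replicate 2, and with library size scaling Ptges3 was -0.08 and Alox5 -0.02. Per longest transcript, naive levels moved beyond their spread to 2.807 CPM per kb for Pla2g4a, 15.28 for Ptgs1, 2.105 for Ptgs2, 26.33 for Ptges3, 57.11 for Alox5 and 117 for Lta4h.

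For libraries with the same replicate number, deviations from the group means correlated at 0.0101, 0.0364 and 0.0379. With 2 libraries per group, these values cannot show that such libraries share nothing but the number. With the replicate number as a block, 1, 3 and 3 members and 959, 2559 and 2709 genes were called in the 3 comparisons, and no member's call changed.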

Other observations

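Ptgs2os2, a long noncoding RNA on the same chromosome as Ptgs2 (chr1:150159043-150164948), was looked up for its name and its values were seen before it was chosen. It stood at 4.83 and 4.01 CPM in naive, 4.81 and 3.8 CPM in week 1, and 2.02 and 2.54 CPM in week 3 libraries. Both week 3 libraries lay below the other 4. Ptgs2os2 fell by 0.95 on the log2 scale at week 3 against naive (SE 0.318, adjusted p = 0.0486, edgeR), and its change from week 1 to week 3 was -0.92 (SE 0.316, adjusted p = 0.0528). Unlike Ptgs2, its week 1 libraries lay around the naive values, with a change of -0.04 (SE 0.298, adjusted p = 0.964).

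The other pathway genes that were not called in a comparison but came nearest to the threshold there were Ptges2, Cyp4f18, Prxl2b, Anxa2 and Dpep2. Ptges2, a membrane-bound prostaglandin E synthase, changed by 0.71 at week 3 against naive (adjusted p = 0.0518). Cyp4f18, which inactivates leukotriene B, changed by 0.49 at week 1 (adjusted p = 0.0534). Prxl2b, a prostamide and prostaglandin F synthase, changed by -0.73 from week 1 to week 3 (adjusted p = 0.0596). Anxa2 changed by 0.37 at week 3 against naive (adjusted p = 0.0672). Dpep2, a dipeptidase that converts leukotriene D, changed by 0.67 at week 1 (adjusted p = 0.0676).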
